A study of Homo sapiens with 10 samples.

Results

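The 4 ID genes (ID1, ID2, ID3 and ID4) and 6 components of the BMP-SMAD pathway (SMAD1, SMAD6, SMAD7, BAMBI, BMPR2 and BMP4) were followed through 10 expression arrays. They were chosen because ID1 was already known to be lower with estradiol-BSA than with free estradiol in these data, and all of their probe sets that name 1 gene were taken. This gave 10 genes with 25 probe sets, of 19775 genes with 41091 such probe sets on the array, and 22 of the 25 passed a filter on dim signal (a mean intensity of at least 19.8), with at least 1 for each gene. The other 3, for ID4 (229386_at), SMAD1 (208015_at) and SMAD6 (209887_at), were dim in both lines, at 5.2 to 14.8. A further probe set that names both ID2 and ID2B was left out.

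The arrays come from 2 established human lines of non-small cell lung cancer, A549 (labelled adenocarcinoma) and HTB-182 (labelled squamous cell and called H520 in the title of the series). Cells of each line spent 4 h in medium with charcoal-stripped serum, which is low in steroid hormones, and then 3 h with 1 of 5 additions: estradiol-BSA at 1 µM, free 17β-estradiol at 1 µM, either of these with tamoxifen at 10 µM, or 0.1% ethanol as vehicle. Each line and treatment has 1 array, so no difference between treatments within a line has a replicate check, and neither albumin alone nor tamoxifen alone was among the arrays analysed here. The titles of the arrays with estradiol plus tamoxifen name only tamoxifen, and their fuller source descriptions, which name both agents, were followed.

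Estradiol-BSA is estradiol coupled to bovine serum albumin, a form used because the protein is thought to keep the steroid outside the cell, and the study used it to set signals from receptors at the plasma membrane apart from those of free estradiol. Tamoxifen binds estrogen receptors and blocks many of their effects. Bone morphogenetic proteins (BMPs) are secreted ligands that join type I and type II receptors, and the active receptor complex phosphorylates SMAD1, SMAD5 and SMAD9, which enter the nucleus with SMAD4. The ID genes are among the best-known direct targets of these SMADs. ID proteins dimerise with basic helix-loop-helix transcription factors but have no DNA-binding region, so the dimers cannot bind DNA, and this keeps cells from differentiating in many tissues. SMAD6, SMAD7 and BAMBI are also targets of the pathway and dampen it.

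The windows just before the transcription starts of the ID genes and of BAMBI, the BMP-SMAD component whose brightest probe set differed most between the estrogen forms in A549, are shown because these genes moved together in that line. Each window is the 250 bases before the start in the RefSeq annotation of GRCh38.p14, read 5′ to 3′ along the gene: ID1 at chr20:31605039-31605288 (plus strand), ID2 at chr2:8681806-8682055 (plus strand), ID3 at chr1:23559502-23559751 (minus strand), ID4 at chr6:19837120-19837369 (plus strand) and BAMBI at chr10:28677271-28677520 (plus strand). Capitals mark matches on either strand to 3 motifs. One is the GC-rich palindrome GGCGCC, which SMADs can bind. Another is the CCAAT box, searched as ATTGG. The last is the core of the TATA box, TATAA.
ID1: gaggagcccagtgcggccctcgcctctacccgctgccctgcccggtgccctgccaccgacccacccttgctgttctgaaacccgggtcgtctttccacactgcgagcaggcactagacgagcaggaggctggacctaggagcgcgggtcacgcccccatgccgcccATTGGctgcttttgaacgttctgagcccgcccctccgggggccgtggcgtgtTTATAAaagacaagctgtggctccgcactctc
ID2: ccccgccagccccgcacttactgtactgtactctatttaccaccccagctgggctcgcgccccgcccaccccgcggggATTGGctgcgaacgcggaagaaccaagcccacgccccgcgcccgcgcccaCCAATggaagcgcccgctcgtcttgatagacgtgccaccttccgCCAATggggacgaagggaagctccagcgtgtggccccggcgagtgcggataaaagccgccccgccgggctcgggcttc
ID3: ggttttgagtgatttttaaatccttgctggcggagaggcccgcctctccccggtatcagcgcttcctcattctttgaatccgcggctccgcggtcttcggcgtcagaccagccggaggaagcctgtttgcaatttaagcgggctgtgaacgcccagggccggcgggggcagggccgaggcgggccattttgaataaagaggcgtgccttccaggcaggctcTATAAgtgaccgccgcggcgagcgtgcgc
ID4: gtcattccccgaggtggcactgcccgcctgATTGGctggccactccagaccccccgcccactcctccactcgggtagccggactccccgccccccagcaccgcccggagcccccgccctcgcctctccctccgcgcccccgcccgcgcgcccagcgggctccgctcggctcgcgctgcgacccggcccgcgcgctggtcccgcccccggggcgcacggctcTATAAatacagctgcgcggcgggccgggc
BAMBI: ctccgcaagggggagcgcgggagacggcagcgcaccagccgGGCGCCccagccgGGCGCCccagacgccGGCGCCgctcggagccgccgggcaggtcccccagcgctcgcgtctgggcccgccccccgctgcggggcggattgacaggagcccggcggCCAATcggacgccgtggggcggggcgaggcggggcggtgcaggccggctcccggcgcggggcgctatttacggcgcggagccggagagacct

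ID1 has a CCAAT match 80 to 84 bases before the start and TATAA matches on both strands that overlap each other, between 27 and 32 bases before it. ID2 has 3 CCAAT matches and no TATAA match, ID3 has a TATAA match at 25 to 29 bases, and ID4 has 1 CCAAT match and a TATAA match at 25 to 29 bases. BAMBI holds 3 copies of GGCGCC and 1 CCAAT match, and none of the 4 ID windows holds GGCGCC. Of 35116 windows of the same length, 32.0% hold ATTGG, 18.9% hold TATAA and 16.4% hold GGCGCC on either strand. The shorter SMAD-binding motif CAGAC (38.0% of windows) is in ID3, ID4 and BAMBI. The E-box CANNTG (61.8%), to which helix-loop-helix factors bind, is in ID2 and ID4. The full palindromic estrogen response element (0.0399% of windows) is in none of the 18 windows of the 10 genes. These are letter matches in short windows and show no binding, and regulatory sites further away are not covered.

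Signal is given as the MAS5 intensity on a linear scale, and differences are of log2(intensity + 16), which understates the change of dim probe sets. Differences between single arrays are called at 1.5-fold on that scale. Because the genes were chosen with the difference between the estrogen forms known, values of that comparison are a description and carry no test. Over the 23130 probe sets that passed the filter, estradiol-BSA minus estradiol had a median of -0.11 in A549, the one shift above 0.1 in size among these 4 pairs, beside 0.06 in HTB-182 and, with tamoxifen, -0.03 in A549 and 0.03 in HTB-182. The A549 vehicle array stood apart, with 263 of 12975 genes 2-fold or more away from the average of the remaining A549 arrays (249 of them lower), against 23 to 35 genes on each of those and 0 to 3 on each HTB-182 array. As a check of the labels, the simple-epithelium keratin KRT7 averaged 3411 ± 581 in A549 and 18.1 ± 4.4 in HTB-182 (SD, n = 5 arrays each), and the squamous-lineage factor SOX2 averaged 135 ± 60 in A549 and 4152 ± 229 in HTB-182. Other markers looked at did not all go with the labels. NKX2-1, a lung adenocarcinoma marker, averaged 17.0 in A549, and the squamous markers KRT14 and DSG3 averaged 8.4 and 13.4 in HTB-182. The squamous keratin KRT5 averaged 26.1 in A549 and 22.1 in HTB-182. From the adenocarcinoma and alveolar list, SFTPB and SFTPC averaged 27.8 and 41.6 in A549, and 32.2 and 48.0 in HTB-182. NAPSA averaged 31.2 in A549 and 22.3 in HTB-182, and KRT18 was bright in both, at 9139 in A549 and 2952 in HTB-182.

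ID1 was lower with estradiol-BSA than with free estradiol in both lines, without and with tamoxifen. In A549 its intensity was 1418 with estradiol-BSA and 1351 with estradiol-BSA plus tamoxifen, against 2442 with estradiol, 2393 with estradiol plus tamoxifen and 2968 with vehicle. HTB-182 cells had 377.8 with estradiol-BSA and 336.9 with estradiol-BSA plus tamoxifen, against 971.6 with estradiol, 758.1 with estradiol plus tamoxifen and 806.7 with vehicle. In each line both estradiol-BSA arrays lay below all 3 of the others, with no overlap. The log2 differences of estradiol-BSA minus estradiol were -0.78 in A549 and -1.33 in HTB-182, and those with tamoxifen were -0.82 in A549 and -1.13 in HTB-182. Averaged over the tamoxifen states, ID1 was 1.74-fold lower with estradiol-BSA in A549 and 2.35-fold lower in HTB-182. On the scale used for differences, ID1 was the 1 probe set of 23130 (0.00432%) at least 1.5-fold lower in all 4 pairs of arrays. The margin was narrow: ID2 201565_s_at passed in 3 of its 4 pairs and was 1.499-fold lower in HTB-182 without tamoxifen. With a pseudocount of 1, 2 member probe sets were past 1.5-fold in both lines without tamoxifen. ID1 was chosen with this contrast known, so nothing is read from its being the only one.

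**Figure D1:**
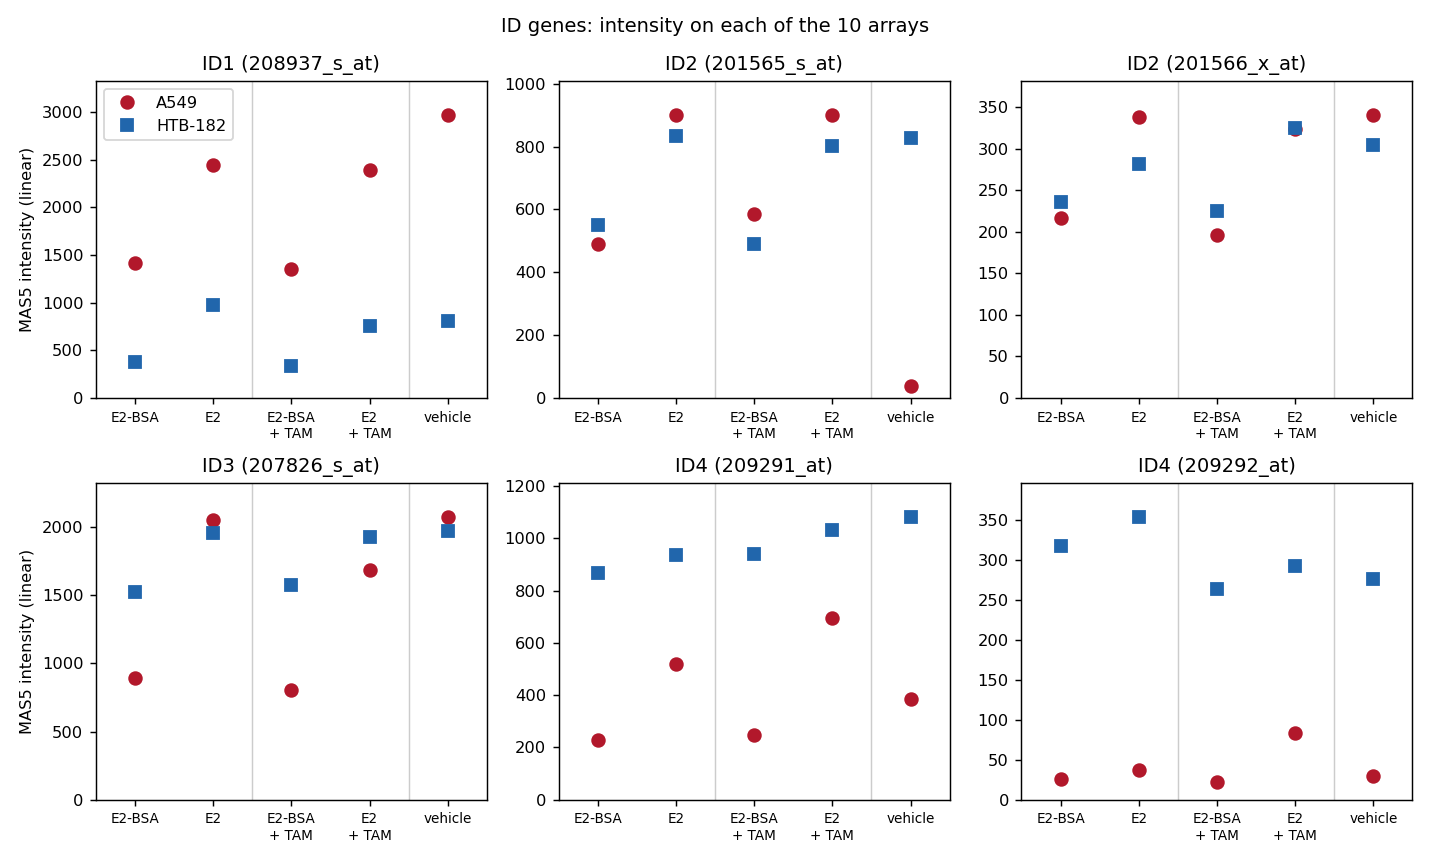
MAS5 intensity (linear axis from 0) of 6 ID probe sets on each of the 10 arrays, by treatment (E2-BSA, estradiol-BSA; E2, estradiol; TAM, tamoxifen), with A549 as red circles and HTB-182 as blue squares. Every point is 1 array, and in both lines the E2-BSA points of ID1, ID3 and ID2 201566_x_at lie below the E2 and vehicle points.

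ID2, which is broadly expressed and, like ID1, restrains differentiation, has 2 probe sets. Probe set 201565_s_at had 491.0 and 586.7 with estradiol-BSA without and with tamoxifen in A549, against 899.9 and 900.7 with estradiol without and with tamoxifen. HTB-182 had 550.3 and 490.4 with estradiol-BSA without and with tamoxifen, against 833.1 and 803.5 with estradiol without and with tamoxifen. The estradiol-BSA arrays were the lower ones in both lines. On the A549 vehicle array this probe set read 39.4, far below the 4 treated A549 arrays, whereas the HTB-182 vehicle array read 827.4, close to its estradiol arrays. The second probe set, 201566_x_at, did not show that drop: A549 had 216.5 and 196.0 with estradiol-BSA without and with tamoxifen, against 338.7 and 323.9 with estradiol without and with tamoxifen and 340.5 with vehicle. HTB-182 had 236.4 and 225.6 with estradiol-BSA without and with tamoxifen, against 281.5 and 325.0 with estradiol without and with tamoxifen and 304.3 with vehicle. By this probe set estradiol-BSA was below both estradiol and vehicle in both lines.

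ID2 differences of estradiol-BSA minus estradiol were -0.85 (201565_s_at) and -0.61 (201566_x_at) in A549, and -0.58 and -0.24 in HTB-182. With tamoxifen they were -0.61 and -0.68 in A549, and -0.69 and -0.50 in HTB-182. The HTB-182 value of -0.58 for 201565_s_at lay just short of the 1.5-fold threshold, so this probe set was past it in 3 of its 4 pairs. The probe set shared by ID2 and ID2B, set aside above, read 26.0 and 24.3 with estradiol-BSA without and with tamoxifen in A549, against 34.8 and 39.6 with estradiol without and with tamoxifen and 39.4 with vehicle. In HTB-182 it read 28.4 and 31.4 with estradiol-BSA without and with tamoxifen, against 42.3 and 40.5 with estradiol without and with tamoxifen and 40.3 with vehicle. Its estradiol-BSA arrays were thus also the lowest in both lines, although its signal was close to the filter.

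ID3, which acts with ID1 in many vascular and developmental settings, differed more between the estrogen forms in A549 than in HTB-182. A549 had 892.6 and 804.3 with estradiol-BSA without and with tamoxifen, against 2053 and 1688 with estradiol without and with tamoxifen and 2077 with vehicle. HTB-182 had 1522 and 1576 with estradiol-BSA without and with tamoxifen, against 1961 and 1929 with estradiol without and with tamoxifen and 1974 with vehicle. In both lines the groups did not overlap. The log2 differences were -1.19 and, with tamoxifen, -1.05 in A549, and -0.36 and -0.29 in HTB-182. Whether the lines differ in this was not tested.

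ID4, the member of the family most studied in the nervous system and in breast tissue, has 4 probe sets above the filter. The brightest, 209291_at, had 226.8 and 246.1 with estradiol-BSA without and with tamoxifen in A549, against 518.5 and 693.3 with estradiol without and with tamoxifen and 384.2 with vehicle. HTB-182 had 867.7 and 940.2 with estradiol-BSA without and with tamoxifen, against 936.2 and 1031 with estradiol without and with tamoxifen and 1082 with vehicle. In A549 the estradiol-BSA arrays lay below all others, and the differences were -1.14 and, with tamoxifen, -1.44. In HTB-182 the arrays of the estrogen forms overlapped, and the differences were -0.11 and, with tamoxifen, -0.13.

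The other ID4 probe sets had the same direction at lower signal. In A549, 209292_at had 26.3 and 22.0 with estradiol-BSA without and with tamoxifen, against 37.3 and 83.3 with estradiol without and with tamoxifen, and in HTB-182 it had 317.8 and 263.0 against 353.9 and 292.0. Probe set 226933_s_at had 18.7 and 12.8 with estradiol-BSA in A549 without and with tamoxifen, against 26.7 and 37.5 with estradiol, and in HTB-182 it had 79.0 and 97.2 against 109.1 and 110.8. For 209293_x_at the values with estradiol-BSA were 31.4 and 44.3 in A549, against 52.7 and 51.3 with estradiol, and 106.0 and 120.0 in HTB-182, against 130.9 and 138.7. The 4 probe sets of this gene disagreed in size: in A549 without tamoxifen their differences ran from -1.14 to -0.30.

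All 8 ID probe sets above the filter were below 0 in each of the 4 pairs. Their median difference was -0.69 in A549 and -0.31 in HTB-182, and with tamoxifen -0.86 in A549 and -0.24 in HTB-182. After the median of all probe sets was taken off, 8 of 8 remained below 0 in each pair, from -1.08 to -0.19 in A549 and from -1.39 to -0.17 in HTB-182 without tamoxifen. Probe sets of 1 gene share its transcripts and are not independent observations. The genes were chosen with this contrast known, so nothing is read from these counts.

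Among the BMP-SMAD components, BAMBI and BMP4 were lower with estradiol-BSA in A549 and not in HTB-182, a difference between the lines that was not tested. BAMBI, a pseudoreceptor that lacks a kinase and blocks signalling by receptors of the TGF-beta and BMP family, had 653.5 and 644.9 with estradiol-BSA without and with tamoxifen in A549, against 1416 and 1163 with estradiol without and with tamoxifen and 1478 with vehicle. HTB-182 had 2053 and 1980 with estradiol-BSA without and with tamoxifen, against 1930 and 2112 with estradiol without and with tamoxifen and 2093 with vehicle. The A549 differences were -1.10 and, with tamoxifen, -0.84, with no overlap, and the HTB-182 differences were 0.09 and -0.09, with overlap. BMP4, a secreted ligand of the pathway, had 119.7 and 128.7 with estradiol-BSA without and with tamoxifen in A549, against 238.1 and 186.7 with estradiol without and with tamoxifen and 253.6 with vehicle. HTB-182 had 216.2 and 198.4 with estradiol-BSA without and with tamoxifen, against 190.7 and 188.4 with estradiol without and with tamoxifen and 202.5 with vehicle. BMP4 was lower with estradiol-BSA in A549, at -0.91 and, with tamoxifen, -0.49, while in HTB-182 both estradiol-BSA arrays lay slightly above both estradiol arrays, at 0.17 and, with tamoxifen, 0.07.

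**Figure D2:**
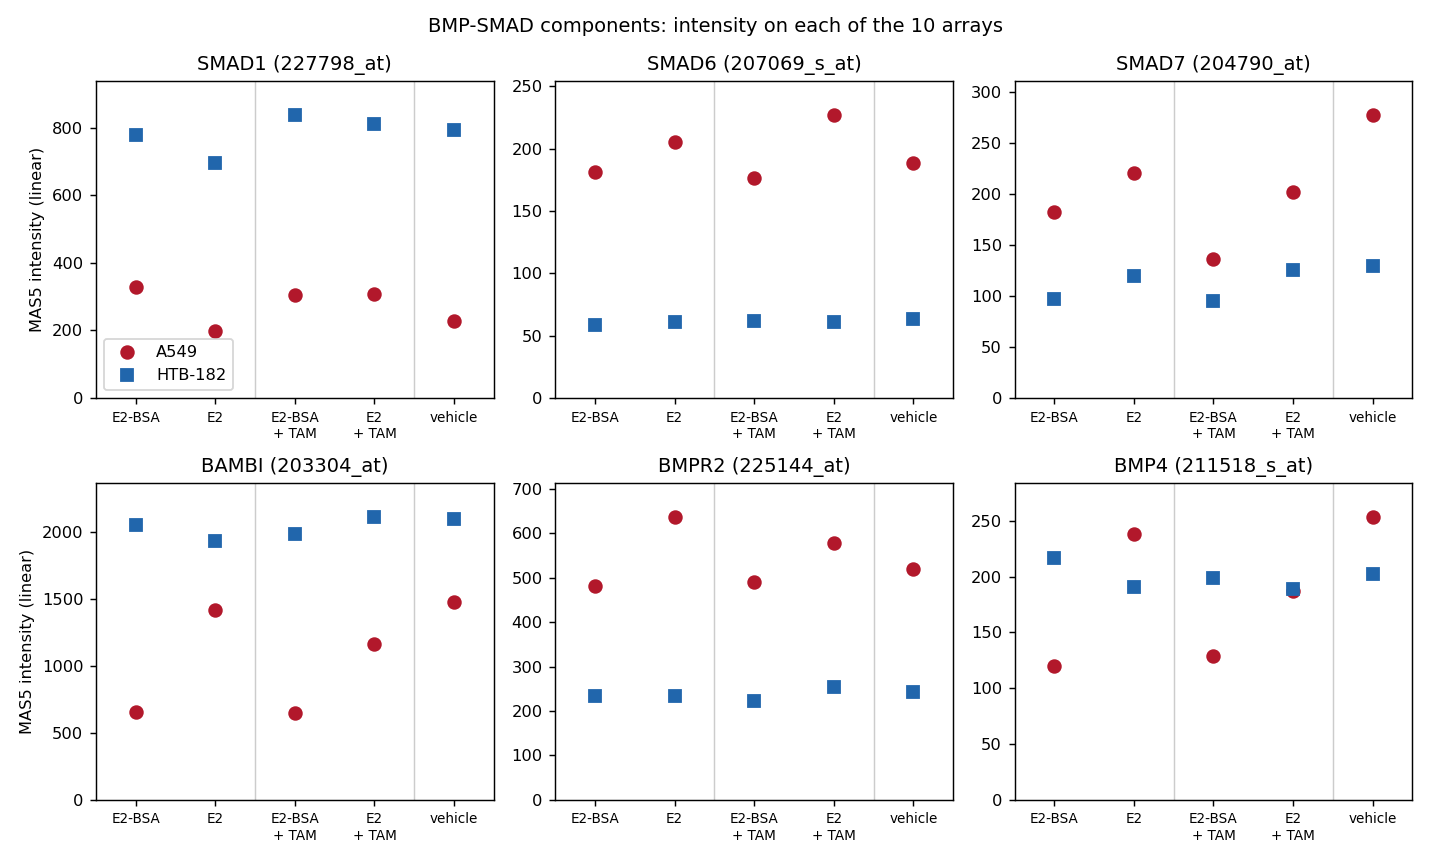
MAS5 intensity (linear axis from 0) of the brightest probe set of each BMP-SMAD component on each of the 10 arrays, by treatment (E2-BSA, estradiol-BSA; E2, estradiol; TAM, tamoxifen), with A549 as red circles and HTB-182 as blue squares. The A549 points of BAMBI and BMP4 are low in both E2-BSA treatments, and SMAD1 and SMAD6 are separated by line.

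SMAD7, an inhibitory SMAD that blocks both the BMP and the TGF-beta branch, had the same order of the estrogen forms in both lines, as did 1 of the probe sets of BMPR2 (210214_s_at). In A549 it had 182.4 and 136.7 with estradiol-BSA without and with tamoxifen, against 220.8 and 202.2 with estradiol without and with tamoxifen and 277.7 with vehicle. HTB-182 had 97.2 and 95.2 with estradiol-BSA without and with tamoxifen, against 119.9 and 125.9 with estradiol without and with tamoxifen and 129.3 with vehicle. The estradiol-BSA arrays were the lowest in each line, by -0.25 and -0.51 in A549 and by -0.26 and -0.35 in HTB-182, without and with tamoxifen. None of these passed 1.5-fold. SMAD6, the inhibitory SMAD more specific to BMP signals, had 181.5 and 176.4 with estradiol-BSA without and with tamoxifen in A549 (207069_s_at), against 205.1 and 226.9 with estradiol. In HTB-182 the same probe set had 58.7 and 61.4 with estradiol-BSA, against 60.6 and 60.8 with estradiol, and the forms overlapped. Its other 2 probe sets above the filter were dim, at 15.1 to 39.3, and differed between the forms by -0.33 to 0.31.

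SMAD1, which carries the BMP signal into the nucleus, gave no common direction. Probe set 227798_at had 327.3 and 305.7 with estradiol-BSA without and with tamoxifen in A549, against 197.7 and 307.5 with estradiol without and with tamoxifen and 226.4 with vehicle. Its difference of 0.68 without tamoxifen came beside -0.01 with tamoxifen, and the HTB-182 differences were 0.16 and 0.05. HTB-182 had 777.1 and 837.2 with estradiol-BSA without and with tamoxifen, against 695.6 and 809.8 with estradiol without and with tamoxifen and 794.3 with vehicle. The second SMAD1 probe set, 210993_s_at, was at -0.39 and -0.13 in A549 and at 0.10 and -0.03 in HTB-182, so the probe sets disagreed in sign in A549 without tamoxifen. In HTB-182 its intensities all lay between 303.5 and 347.6.

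BMPR2, the type II receptor of BMPs, has 6 probe sets above the filter. The brightest, 225144_at, had 480.3 and 489.6 with estradiol-BSA without and with tamoxifen in A549, against 637.4 and 579.1 with estradiol, and 234.6 and 223.0 in HTB-182, against 232.9 and 254.7. In A549 the forms were apart (-0.40 and, with tamoxifen, -0.24), and in HTB-182 the differences were 0.01 and -0.18. Probe set 209920_at had the largest difference, at -1.28 in A549 without tamoxifen, and rested on 1 array: the A549 estradiol array read 234.8, and the other 4 read 85.8 to 123.8. Probe set 210214_s_at showed the same high estradiol array, at 101.5 against 45.9 with estradiol-BSA, and was at -0.08 with tamoxifen. The A549 estradiol array also moved with much of the array as a whole: the median size of the difference over all probe sets was 0.21 in that pair, against 0.10 to 0.11 in the other 3.

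Probe set 231873_at of BMPR2 had 280.9 and 280.8 with estradiol-BSA without and with tamoxifen in A549, against 343.3 and 292.9 with estradiol without and with tamoxifen and 386.1 with vehicle. HTB-182 had 158.4 and 151.6 with estradiol-BSA without and with tamoxifen, against 124.3 and 140.1 with estradiol without and with tamoxifen and 137.2 with vehicle. The estradiol-BSA arrays of this probe set were thus the lower ones in A549 (-0.28 and, with tamoxifen, -0.06) and the higher ones in HTB-182 (0.31 and, with tamoxifen, 0.10). The remaining 2 were close to the filter: 238516_at was at -0.26 without and with tamoxifen in A549 and at -0.10 and -0.36 in HTB-182, and 1556075_at was at 0.12 and 0.17 in A549 and at -0.13 and 0.05 in HTB-182.

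**Figure D3:**
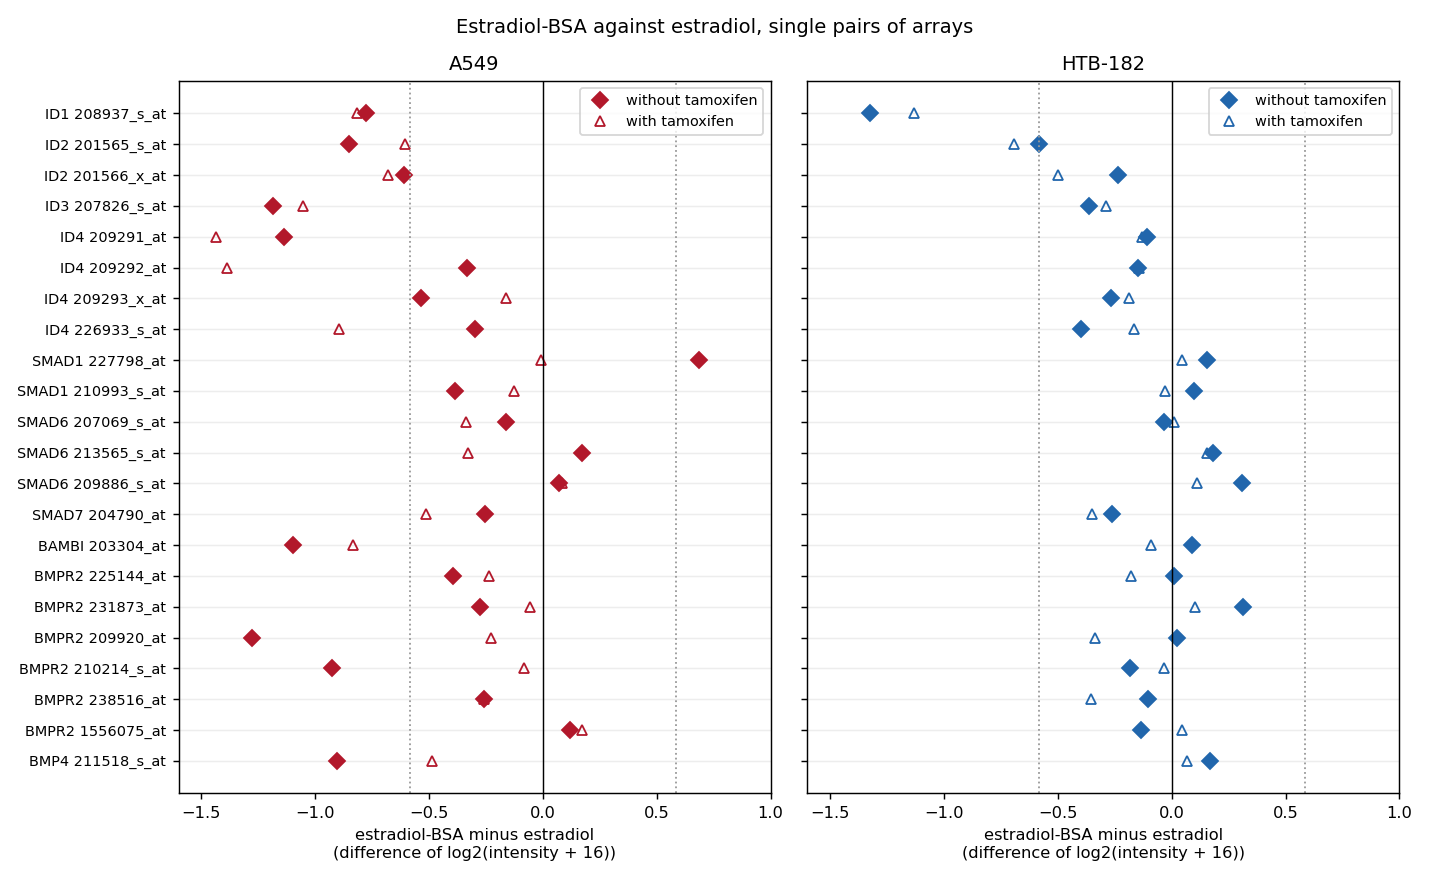
Differences of log2(intensity + 16), estradiol-BSA minus estradiol, for the 22 member probe sets above the filter, in A549 (left, red) and HTB-182 (right, blue), without tamoxifen (filled diamonds) and with it (open triangles). Each symbol is 1 pair of arrays and dotted lines mark 1.5-fold. All ID probe sets lie left of 0, and only ID1 is past the left dotted line with all 4 symbols. ID2 201565_s_at falls just short of that line in HTB-182 without tamoxifen.

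At least 1.5-fold lower with estradiol-BSA than with estradiol were 9 of the 22 probe sets in A549, where 4.63% of all probe sets were, and 1 in HTB-182, where 0.212% were. With tamoxifen these were 8 in A549 (0.476% of all probe sets) and 2 in HTB-182 (0.947%). Both lines passed for ID1 alone without tamoxifen and for ID1 and ID2 201565_s_at with it, in each case among 3 of all probe sets (0.013%). Without and with tamoxifen alike, 6 of the 22 were past the threshold in A549, against 0.151% of all probe sets. The set was picked on this contrast, so nothing is read from these counts.

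Both estradiol-BSA arrays lay below both estradiol arrays in both lines for 8 of the 22 probe sets, against 3.06% of all probe sets, and none lay above (4.43% of all). These were ID1, both probe sets of ID2, ID3, ID4 209293_x_at and 226933_s_at, SMAD7 and BMPR2 210214_s_at. For 6 of them the estradiol-BSA arrays were also below vehicle in both lines (1.66% of all probe sets), the exceptions being ID2 201565_s_at, with its low A549 vehicle array, and ID4 209293_x_at. In A549 alone 18 of the 22 had the estradiol-BSA arrays below the estradiol arrays, a pattern that 31.7% of all probe sets shared there. HTB-182 had 8 of the 22, against 9.58% of all.

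Against vehicle, ID1 was lower with estradiol-BSA by the same amount in both lines, -1.06 in each, and with estradiol-BSA plus tamoxifen it was at -1.13 in A549 and -1.22 in HTB-182. With free estradiol ID1 was at -0.28 in A549 and 0.26 in HTB-182, and at -0.31 and -0.09 with tamoxifen. ID3 was at -1.20 in A549 and -0.37 in HTB-182 with estradiol-BSA, and at -0.02 and -0.01 with estradiol. These 4 comparisons share 1 vehicle array per line. At least 1.5-fold lower than vehicle in both lines was 1 member probe set with estradiol-BSA (0.0346% of all) and 1 with estradiol-BSA plus tamoxifen (0.203%), both times ID1, and 0 with estradiol (0.00432%) or estradiol plus tamoxifen (0.0303%).

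The lines were also compared over all 5 treatments, those with estradiol-BSA included. A difference between the estrogen forms that is unequal in the lines therefore enters this comparison too. Most member probe sets passed, but so did most probe sets of the array, and several belong to the same gene. Nothing is read from the count itself. By limma, fitted over all 23130 probe sets with line and treatment as terms and Benjamini-Hochberg adjustment, 17 of the 22 probe sets passed, 9 higher and 8 lower in A549, where 31.5% of all probe sets passed as higher and 32.3% as lower (63.8% in all). ID1 was 3.31-fold higher in A549 than in HTB-182 (log2 1.73 ± 0.10, SE, 5 of 5 pairs; limma adjusted p = 2.68e-08). It averaged 2115 ± 704 in A549 and 650.2 ± 279.2 in HTB-182 (SD, n = 5 arrays), and the lowest A549 array, at 1351, was above the highest HTB-182 array, at 971.6. ID4 went the other way, with 209291_at at 413.8 ± 195.6 in A549 and 971.4 ± 84.9 in HTB-182 (log2 -1.32 ± 0.18, SE; limma adjusted p = 5.11e-05) and its other 3 probe sets at -2.59 to -1.27. ID3 was only just past the threshold (log2 -0.35 ± 0.14, SE; limma adjusted p = 0.0483; lower in 3 of 5 pairs), and in 10 of 20 alternative settings it was not (adjusted p 0.0052 to 0.197, log2 -0.46 to -0.20). Its intensities were near even with estradiol (2053 in A549 and 1961 in HTB-182) and with vehicle (2077 and 1974). With estradiol-BSA they were 892.6 in A549 and 1522 in HTB-182, and with tamoxifen added 804.3 and 1576.

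ID2 did not pass. Its probe set 201566_x_at was close to even between the lines (log2 0.02, 95% interval -0.20 to 0.24), and 201565_s_at was at -0.71 (-1.80 to 0.38), a value that turned to 0.091 when the low A549 vehicle array was left out. Of the signal carriers and inhibitors, SMAD1 was lower in A549 by both probe sets, with 227798_at at 272.9 ± 57.1 in A549 and 782.8 ± 53.5 in HTB-182 (log2 -1.49 ± 0.10, SE; limma adjusted p = 1.84e-07) and 210993_s_at at -1.27. SMAD6 207069_s_at was 2.74-fold higher in A549 (195.6 ± 20.6 against 60.9 ± 1.6 in HTB-182; limma adjusted p = 1.87e-07), and 209886_s_at did not pass (0.08). The dim SMAD6 probe set 213565_s_at averaged 28.0 in A549 and 17.8 in HTB-182, where it lay under the filter (at least 1.22-fold); it passed the filter only through A549, and its call is 1 of the 9 higher ones. SMAD7 was higher in A549 by 0.74 ± 0.11 (SE; limma adjusted p = 1.00e-04). BAMBI was lower in A549 in all 5 pairs, at 1071 ± 403 in A549 and 2034 ± 77 in HTB-182 (log2 95% interval -1.37 to -0.63; limma adjusted p = 0.000263). Its pairs ran from -1.63 with estradiol-BSA to -0.44 with estradiol.

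BMPR2 was higher in A549 by 5 of its 6 probe sets, at 0.29 to 1.13, with the brightest at 541.1 ± 66.3 in A549 and 237.4 ± 11.8 in HTB-182 (limma adjusted p = 8.93e-07). BMP4 was not called (log2 -0.15, 95% interval -0.51 to 0.21), and its A549 arrays, at 119.7 to 253.6, spanned the HTB-182 range of 188.4 to 216.2. In order of the line difference, the genes by their brightest probe set ran from ID1, SMAD6, BMPR2 and SMAD7 on the A549 side through BMP4, ID3 and ID2 to BAMBI, ID4 and SMAD1 on the HTB-182 side. The place of ID2 rests on its low A549 vehicle array: it was at 0.091 without that array, and its other probe set was at 0.02. The difference is one between 2 cell lines and not between tumour types. The p-values rest on how far the line difference varies from treatment to treatment. That spread mixes the variation of single arrays with any treatment effect that differs between the lines. The variation of single arrays may be technical, since the labels do not say whether each is a separate culture.

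**Figure D4:**
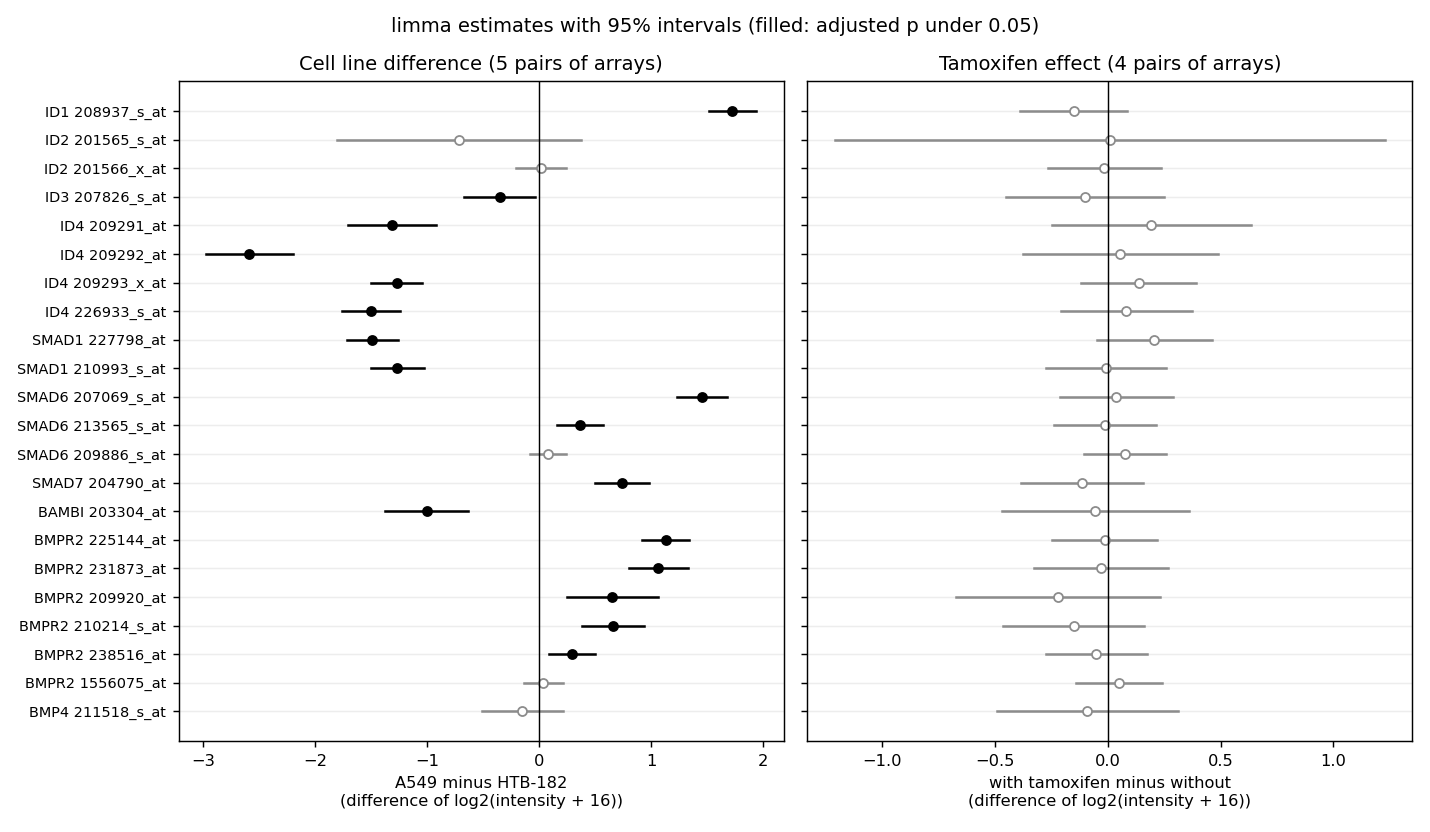
limma estimates with 95% intervals for the 22 member probe sets: A549 minus HTB-182 over 5 pairs of arrays (left) and with minus without tamoxifen over 4 pairs (right), as differences of log2(intensity + 16) on axes of different width. Filled black points passed the adjusted threshold of 0.05, open grey points did not; 17 are filled on the left and 0 on the right.

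No member passed the threshold for tamoxifen added to either estrogen form. Over 4 pairs of arrays the estimates ran from -0.22 (BMPR2 209920_at) to 0.21 (SMAD1 227798_at), and limma called 0 of 22, as it called 0% of all probe sets, with 0 of 22 members and 391 of all probe sets at an unadjusted p under 0.05. Those 391 are fewer than a share of 0.05 of the 23130 probe sets tested, so the count is no sign of an effect. Why it is so low was not tested. ID1 was lower with tamoxifen in 4 of 4 pairs, by -0.15 ± 0.11 (SE; 95% interval -0.39 to 0.08; limma adjusted p = 0.9999), with pairs of -0.35 to -0.03. ID3 was at -0.10 (-0.45 to 0.25), SMAD7 at -0.11 (-0.38 to 0.16) and ID4 209291_at at 0.19 (-0.25 to 0.63). For 21 of the 22 the interval lay within 2-fold either way, the exception being ID2 201565_s_at (-1.21 to 1.23). Its 4 pairs ran from -0.16 to 0.25, and its low A549 vehicle array enters the spread of the fit but not this contrast. Differences inside these intervals are not excluded, and for dim probe sets this scale understates the change of intensity that they allow. The missed threshold does not show that tamoxifen left these genes alone.

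The cell line by tamoxifen term was called for 0 of 22 members and 0% of all probe sets by limma, with 1 member and 484 of all probe sets at an unadjusted p under 0.05. That member was BMPR2 238516_at, a dim probe set, at 0.38 (A549 minus HTB-182; 95% interval 0.02 to 0.74; limma adjusted p = 0.984). ID1 was at 0.12 (-0.33 to 0.57). The largest estimate, for ID2 201565_s_at, was 1.53 (-0.38 to 3.45), outside the range of its 2 pairs, 0.05 and 0.41. The low A549 vehicle array of that probe set enters this fit through the line term, so this estimate is not a difference of tamoxifen pairs alone. The 484 probe sets are also fewer than a share of 0.05 of the 23130 tested. No member passed in any of 19 alternative settings (lowest limma adjusted p 0.182).

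The other genes of the pathway were taken in 7 lists of ligands, receptors, antagonists, regulators, partners and targets, 84 genes of which 79 were measured and 63 passed the filter by their brightest probe set. Of these 63, 6 were lower with estradiol-BSA in all 4 pairs and 4 were higher in all 4, against 4.55% and 8.93% of all 12975 genes. Of the 10 members by their brightest probe set, 5 were lower in all 4 pairs and 0 higher. The members were chosen with this contrast known, so their count is not compared with the lists or with all genes. The median difference of the 63 genes was -0.01, against -0.0037 over all genes. No listed gene passed 1.5-fold as lower in both lines, and limma called 0 of the 63 for tamoxifen, as it called 0% of all genes.

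BMP6, a ligand of the same pathway, had the largest drop, but in A549 without tamoxifen (-2.07), beside -0.41 with tamoxifen in A549. In HTB-182, where it averaged 26.1 and was close to the filter, it was at -0.10 and -0.07. The other ligand lower in all 4 pairs was BMP5, at -0.23 to -0.02, but it averaged 16.7 in HTB-182, under the filter. Among regulators the SMAD corepressor SKIL was lower in all pairs, at -0.72 to -0.07, while TOB1, an antiproliferative protein that represses BMP-activated SMADs, was at 0.06 to 0.66 and the common partner SMAD4 at 0.01 to 0.32. The co-receptor TGFBR3 (0.09 to 0.32) and the helix-loop-helix gene TCF12 (0.10 to 0.21), whose product binds ID proteins, were higher in all pairs. HEY2, another target of the pathway, was at -0.51 to -0.06, and it averaged 17.6 in A549, under the filter. In the TGF-beta branch TGFB1 was at -0.41 to -0.10 and PMEPA1, a feedback inhibitor, at -0.57 to -0.04. TGFB1 averaged 16.3 in HTB-182, also under the filter. Where a gene is under the filter in a line, its direction there is close to background. Apart from BMP6 and SKIL in 1 pair each, and TOB1 in 1, these ranges stayed short of 1.5-fold.

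Between the lines, limma called 26 of the 63 as higher and 23 as lower in A549, against 33.6% and 31.9% of all genes. Of these, 14 lay under the filter in 1 line and passed it only through the other, where they are high, so the counts support no direction. For those named, a fold is a lower bound on the log2(intensity + 16) scale, with the dim line's arrays raised to at least 19.8. Among the partners of ID proteins 1 passed as higher and 5 as lower of 8, led by the E-proteins TCF4 (log2 -5.68 ± 0.09, SE; 90.9 in A549 and 5434 in HTB-182) and TCF3 (-3.28 ± 0.08). In the TGF-beta branch 9 of 12 were higher and 1 lower in A549, with the secreted target TGFBI at 5.11 ± 0.09 and PMEPA1 at 3.61 ± 0.09, while the receptor TGFBR2 averaged 1489 in A549 and a dim 16.1 in HTB-182 (at least 42.1-fold). Of the BMP receptors and co-receptors 4 of 8 were higher and 1 lower, with the type I receptors BMPR1B at 3.98 ± 0.10 and ACVR1 at 1.81 ± 0.10. The antagonists were 5 higher and 1 lower of 6, but the leading ones were dim in the other line: GREM1 averaged 104.5 in A549 and 6.5 in HTB-182 (at least 3.33-fold), FST 109.9 in A549 and 18.4 in HTB-182 (at least 3.47-fold), and CHRDL1 11.7 in A549 and 167.8 in HTB-182 (at least 5.12-fold lower in A549). The regulators were 4 higher and 7 lower of 12, among them TOB1 at 1.61 and SMAD9, the third SMAD of the BMP branch, at 17.5 in A549 and 310.5 in HTB-182 (at least 8.99-fold lower in A549), and the BMP ligands 2 higher and 1 lower of 8, with BMP6 at 1.94 and BMP8B at -1.10. Of 10 other target genes 2 were higher and 7 lower, with MSX1 at -2.01 and GATA3 at 1.47, while RUNX2 averaged 4.8 in A549 and 171.8 in HTB-182 (at least 5.22-fold lower in A549) and DLX2 9.2 in A549 and 174.8 in HTB-182 (at least 5.30-fold lower in A549). All named here were called (limma adjusted p of 5.39e-05 or below). BMPR1B, BMP6 and GATA3 averaged 23.0, 26.1 and 20.7 in HTB-182, close to the filter. The sizes of their differences are therefore limited by background.

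ID1 has 1 probe set, and its pattern over the 10 arrays, after each line's mean was taken off, was set against those of 133 genes that span at least 1.5-fold within each line. The nearest was the noncoding RNA SPRY4-IT1 (Pearson r = 0.94 over 10 arrays), followed by CDC42BPA (0.76), UBN1 (0.75), DUSP6 (0.73), HIP1 (0.70), TMC5 (0.70), RABL6 (0.70) and H1-2 (0.70). In HTB-182, CDC42BPA, UBN1 and HIP1 were low only with estradiol-BSA plus tamoxifen, at 195.3, 472.7 and 78.4. With estradiol-BSA alone they read 302.0, 834.1 and 136.1, against 309.6, 878.0 and 122.3 with estradiol. RABL6 had 172.9 with estradiol-BSA and 172.6 with estradiol there, and TMC5 was dim, at 11.1 to 26.4. SPRY4-IT1 had 19.3 and 21.6 with estradiol-BSA without and with tamoxifen in A549, against 29.6 and 32.5 with estradiol and 37.1 with vehicle, which is near the filter. In HTB-182 it had 36.5 and 33.7 with estradiol-BSA, against 76.4 and 84.9 with estradiol and 85.6 with vehicle, and in both lines its estradiol-BSA arrays were the lowest. DUSP6, which encodes a phosphatase that switches off ERK kinases, had 1101 and 1315 with estradiol-BSA without and with tamoxifen in HTB-182, against 1541 and 1757 with estradiol and 1597 with vehicle. In A549 it had 170.1 and 197.6 with estradiol-BSA, against 195.0 and 275.1 with estradiol and 228.1 with vehicle, so the forms overlapped there. H1-2, a linker histone gene, read 64.3 on the HTB-182 array with estradiol-BSA plus tamoxifen and 118.4 to 136.2 on the other HTB-182 arrays, so the forms overlapped there. In A549 it had 311.0 and 287.7 with estradiol-BSA without and with tamoxifen, against 443.6 and 326.6 with estradiol without and with tamoxifen and 673.4 with vehicle. Among the members, which except for ID2 201565_s_at span less than 1.5-fold in at least 1 line, the nearest to ID1 were ID2 201566_x_at (r = 0.86), SMAD7 (0.83), ID4 226933_s_at (0.78) and ID3 (0.78), whereas ID2 201565_s_at was at -0.09 and SMAD1 227798_at at -0.55. These correlations describe 10 arrays that share their lines and treatments, and the genes were picked for them.

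**Figure D5:**
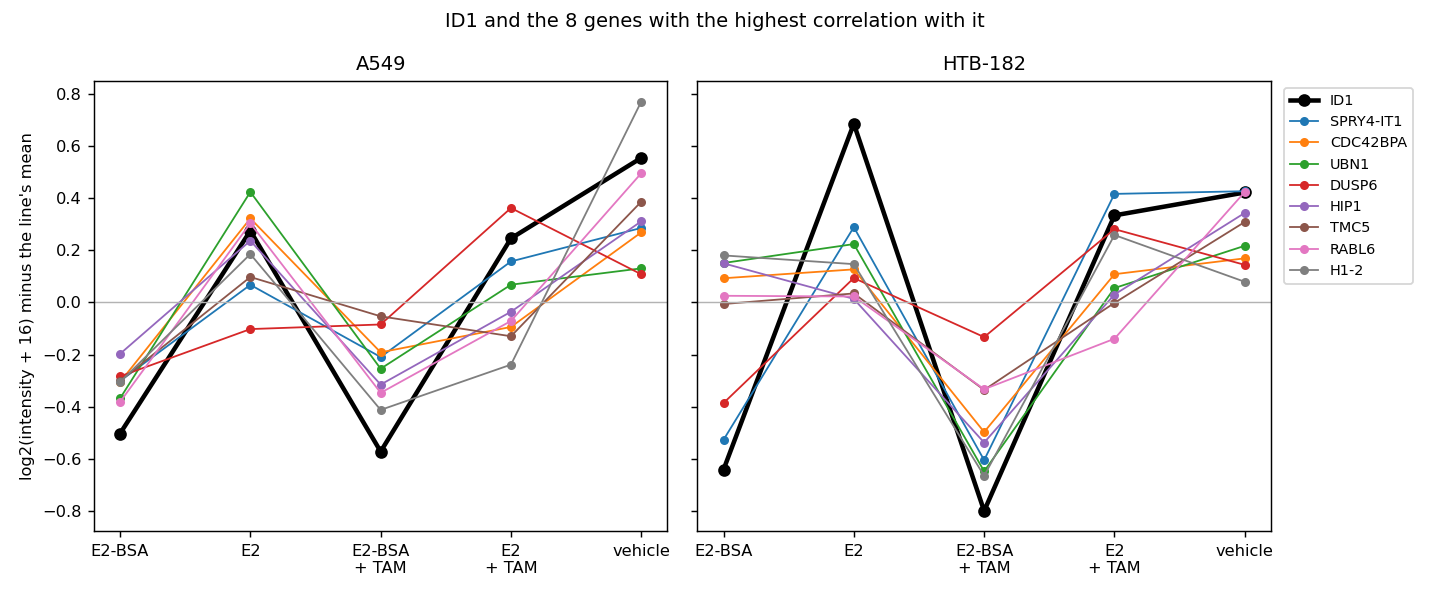
log2(intensity + 16) minus the mean of the line for ID1 (thick black) and the 8 genes with the highest correlation with it, on the 5 arrays of A549 (left) and of HTB-182 (right). Each point is 1 array, lines only guide the eye between treatments (E2-BSA, estradiol-BSA; E2, estradiol; TAM, tamoxifen), and ID1 is lowest in both E2-BSA treatments of each line.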

How the data were processed

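RNA was measured on 10 Affymetrix arrays, 1 for each line and treatment; the labels state no replicate cultures. The authors deposited 1 table of intensities on a linear scale, and MAS5 is the only tool in the submitters' processing notes, with its version and scaling not given in the sources used here; array medians ran from 17.5 to 21.5. Of 54675 probe sets, 62 controls were left out, as were 1801 that name several genes and 11721 with no gene name here, by GEO's platform annotation. Intensities were transformed as log2(intensity + 16), and probe sets whose mean reached the median of all probe sets (an intensity of 19.8) were tested. Differences were fitted with limma (version 3.58.1, R version 4.3.3; lmFit, eBayes with an intensity trend, adjusted p threshold 0.05) with line and treatment as terms, so that the line is the block that pairs the arrays; another fit added a cell line by tamoxifen term. The vehicle arrays enter that fit through the line term, which can put an estimate outside the range of its pairs. The procedure was tested on simulated data. The intensities carry no read depth, and the number of arrays limits the precision.

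Members, pathway lists and tests were chosen with earlier results of these data known. All 1-gene probe sets of the members are covered, those close to the filter by differences or ranges. Named from the lists are up to 3 genes in each direction and list with the largest differences that moved the same way in every pair. The genes most like ID1 are the 8 with the highest Pearson r. Alternatives were pseudocounts of 1 and 64, other filters, the brightest probe set only, quantile normalization, median centring, array weights, no trend, and leaving out each array. Promoters are RefSeq windows on GRCh38.p14.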

Additional observations from a re-analysis of the deposited data

Results flagged for a closer look

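Of 44 sets of 5 arrays of 1 probe set in 1 line, 1 held an array far from the others: ID2 201565_s_at read 39.4 on the A549 vehicle array and 491.0 to 900.7 on the treated A549 arrays. Chance gives about 1 such array in 20 sets. The second ID2 probe set read 340.5 on that array, within its range on the estradiol arrays.

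Of 44 sets of pairs, 5 had both A549 pairs going one way and both HTB-182 pairs the other: 2 of 22 probe sets for estradiol-BSA against estradiol, where 19.5% of all probe sets did, and 3 of 22 for tamoxifen, where 10.8% did. These shares are no higher than the background for the estrogen forms and near it for tamoxifen, and the differences between the lines were not tested on the pairs themselves. With estradiol-BSA against estradiol, BMP4 211518_s_at was at -0.91 and -0.49 in A549 and at 0.17 and 0.07 in HTB-182, so the A549 mean was -0.81 relative to that of HTB-182. BMPR2 231873_at was at -0.28 and -0.06 in A549 and at 0.31 and 0.10 in HTB-182, a mean of -0.37 relative to HTB-182. With tamoxifen against without it, ID2 201565_s_at had 0.0013 and 0.25 in A549 and -0.05 and -0.16 in HTB-182, so the A549 mean was 0.23 above that of HTB-182. The dim BMPR2 probe set 238516_at had 0.13 in both A549 pairs and -0.36 and -0.11 in HTB-182, a mean 0.36 higher in A549. The other dim one, 1556075_at, had -0.07 and -0.01 in A549 and 0.23 and 0.05 in HTB-182, a mean of -0.18 relative to HTB-182.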

How the results depend on the processing

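The count of probe sets called between the lines was 14751 and ran from 13458 to 15065 without single arrays. With only the brightest probe set of each gene it was 8523, as fewer are tested. ID1, ID4, SMAD1, SMAD6, SMAD7, BAMBI and BMPR2 (brightest probe sets) kept their call and direction between the lines in all 20 settings, and ID3 lost its call in 10. The tamoxifen count was 0 in all 20 settings, and the cell line by tamoxifen count ran from 0 to 7 without single arrays. The count of 8 member probe sets with estradiol-BSA below estradiol in both lines was 11 with quantile normalization, 12 with median centring, 7 with a mean intensity of at least 50 and 4 with brightest probe sets only, and it ran from 8 to 12 without single arrays, where fewer arrays must be in order. Members 1.5-fold lower in both lines were 2 with a pseudocount of 1, quantile normalization or median centring (1 as reported). With tamoxifen they were 1 with a pseudocount of 64 or median centring (2 as reported). For these moves by pseudocount or scaling the cause was not tested.

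Directions turned without single arrays, and the cause was not tested: between the lines, ID2 201565_s_at ran from -0.95 to 0.091 (above 0 without either vehicle array) and BMP4 from -0.26 to 0.0057 (without either estradiol-BSA array). For tamoxifen, ID3 ran from -0.29 to 0.088 (0.026 without the HTB-182 estradiol-BSA array, 0.031 without the A549 estradiol array and 0.088 without the A549 array of estradiol-BSA plus tamoxifen), and ID4 209291_at from -0.044 (without the A549 array of estradiol plus tamoxifen) to 0.43. BMP4, in the fit over both lines, ran from -0.76 to 0.022 for estradiol-BSA minus estradiol (above 0 without the A549 estradiol-BSA array) and from -0.47 to 0.052 with tamoxifen (without the A549 array of estradiol-BSA plus tamoxifen). When an array is left out, only the other line still has that treatment, so such a value is not an average over both lines. No paired analysis by replicate number was possible because each line and treatment has 1 array. Signals near the filter are close to background and limit what the dim probe sets of ID4, SMAD6 and BMPR2 can show.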
